A study of Caenorhabditis elegans with 43 samples.

Results

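SNPC-1.3 occupancy of chromatin after depletion of SNPC-4 was compared with occupancy in worms with intact SNPC-4, bin by bin, in 8 of the 43 libraries of a C. elegans series on piRNA transcription. The SNPC-4-depleted worms have the titles' triple genotype of snpc-1.3::3xflag with snpc-4::aid and TIR1. They carried SNPC-4 fused to an auxin-inducible degron, snpc-4(xk23), unc-11(ed3), and the transgene ieSi38, in which the germline promoter of sun-1 drives TIR1, the plant F-box protein that directs degron-tagged proteins to degradation. These worms received 250 uM auxin for 4 hr before collection. The intact worms are labelled snpc-1.3::3xflag, with the allele snpc-1.3(xk32). N2, the wild-type strain without a tag, served as the background of the same antibody.

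All 3 strains of the ChIP were collected as whole L4 worms at 48 hr and precipitated with an antibody to the Flag tag. Each had 2 replicates of IP and input DNA. The labels give auxin for the depleted strain alone, so that depletion, auxin and the alleles of that background cannot be told apart. Depletion by ieSi38 is limited to the germline, whereas chromatin came from the whole body, so that fewer germ cells and less SNPC-1.3 per germ cell cannot be told apart. The level of SNPC-4 protein after auxin was not analysed here. The genotype field of the depleted libraries lists snpc-4(xk23), unc-11(ed3) and ieSi38 but not the Flag allele of snpc-1.3, which their titles and descriptions do give. The study's text and strain list give the tag for this strain as well, so that the titles were followed. The study calls the replicates biological, and the labels do not say how they were kept separate. The p-values measure the spread between these samples.

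The members are the 1-kb bins of WBcel235 that the deposited lists hold for both strains. Of 70403 bins listed in any of the 6 ChIP lists, 25857 were listed for both strains in replicate 1, 25236 in replicate 2, and 16629 in all 4 lists. A bin was listed only where its IP coverage passed a threshold taken from input coverage, so that bins with low IP coverage dropped out. IP coverage includes background, and untagged N2 had 43919 and 43546 bins listed. Depleted worms had 45381 and 42768, and intact worms 33967 and 34884. The comparison of listed bins therefore leaves out the bins with the lowest IP in depleted worms. Total counts behind the CPM values were 22125209 and 14980457 for the depleted IP libraries, against 20523886 and 24896703 for the intact IP libraries, and the inputs held between 39889847 and 48104586. The Pearson correlation of log2 IP over input between replicates, across the tested bins of the big cluster, was 0.65 for depleted and 0.94 for intact worms (667 bins that share libraries and neighbours).

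piRNAs are germline small RNAs that guide the Argonaute PRG-1 to foreign transcripts, and in C. elegans most are encoded as many short independent transcription units in clusters on chromosome IV. SNAPc is a conserved complex that binds the proximal sequence element of small nuclear RNA genes. SNPC-4 is the C. elegans homolog of its DNA-binding subunit SNAPC4, and SNPC-1.3 is a homolog of SNAPC1 that serves the piRNAs of the male germline. Many piRNA genes carry the sequence GTTTCA about 40 bases before the first base of the piRNA. The trans-spliced leader (SL) RNA genes, named sls, are another class of small noncoding genes of nematodes and are transcribed by SNAPc-dependent promoters.

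Sequences from RefSeq (WBcel235) are shown for the piRNA and SL RNA starts on which the results below turn. The first 3 lines give 60 bases before a piRNA followed by its 21 bases. Capitals mark the piRNA and, where present, GTTTCA with the bases on its left. 21ur-10837 lies at chrIV:15230284-15230364 (+ strand), 21ur-1258 at chrIV:14392563-14392643 (+ strand) and 21ur-1763 at chrIV:14985081-14985161 (+ strand).
21ur-10837: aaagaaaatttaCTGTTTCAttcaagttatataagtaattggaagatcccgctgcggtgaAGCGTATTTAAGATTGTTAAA
21ur-1258: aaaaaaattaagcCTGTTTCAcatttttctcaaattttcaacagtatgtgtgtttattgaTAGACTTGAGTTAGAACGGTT
21ur-1763: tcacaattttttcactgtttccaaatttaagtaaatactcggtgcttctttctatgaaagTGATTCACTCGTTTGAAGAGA
The next lines give the 100 bases before 3 SL RNA genes that start in bins with lower signal, one in the small piRNA cluster and the others outside the clusters. Capitals mark TGTCNG, a string chosen after these sequences had been seen. sls-2.19 is preceded by chrIV:5264807-5264906 (+ strand), sls-2.11 by chrIV:9140315-9140414 (+ strand) and sls-2.14 by chrIII:11090524-11090623 (- strand).
sls-2.19: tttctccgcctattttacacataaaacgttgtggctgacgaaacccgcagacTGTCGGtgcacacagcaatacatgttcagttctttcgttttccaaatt
sls-2.11: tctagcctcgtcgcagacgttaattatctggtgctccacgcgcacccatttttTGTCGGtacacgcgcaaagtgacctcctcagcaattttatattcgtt
sls-2.14: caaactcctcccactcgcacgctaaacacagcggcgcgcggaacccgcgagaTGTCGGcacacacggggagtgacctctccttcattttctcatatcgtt

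GTTTCA stood in the 60 bases before 64.2% of 11388 piRNA starts of the big cluster, 68.2% of 2816 of the small cluster and 56.1% of 510 elsewhere on chromosome IV, read on the strand of the piRNA. It stood before 4.81% of 3285 protein-coding genes of the chromosome, and in 71.5% of its 17493 bins on either strand. TGTCNG, read on the strand of the gene in the 100 bases before the start, was present for 24 of 27 SL RNA genes outside chromosome I (88.9%), for 43 of 87 other genes annotated as snRNA (49.4%) and for 4.23% of the protein-coding genes of chromosome IV. None of these SL RNA or other snRNA genes held GTTTCA in the same window.

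To ask whether SNPC-1.3 occupies piRNA loci without SNPC-4, log2 of IP CPM over input CPM was compared in the big cluster (13.5 to 17.2 Mb) and the small cluster (4.5 to 7 Mb) of chromosome IV. In the big cluster, the median of the bins listed for both strains was 0.04 and 0.14 in depleted worms, against 0.85 and 0.86 in intact worms. The small cluster had 0.07 and 0.11 in depleted worms, against 0.34 and 0.31 in intact worms. Neither depleted sample reached an intact one in either cluster. On the rest of chromosome IV the medians were 0.09 and 0.16 in depleted worms and 0.09 and 0.11 in intact worms, and on the other nuclear chromosomes 0.10 and 0.17 in depleted and 0.08 and 0.11 in intact worms, so that the samples overlapped there. An exact permutation test over the 4 samples gave p = 0.333 for each cluster, two-sided, the smallest value that 2 samples against 2 allow, and p = 0.667 outside. In those bins of the big cluster that were also listed for N2, the N2 medians were 0.07 and 0.15.

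The median change per bin (depleted minus intact, log2) in replicates 1 and 2 was -0.80 (1439 bins) and -0.68 (821 bins) in the big cluster, -0.26 (1064 bins) and -0.17 (824 bins) in the small cluster, and 0.01 (3511 bins) and 0.04 (3209 bins) on the rest of chromosome IV. Signal was lower in depleted worms in 97.4% and 94.2% of big-cluster bins, in 87.1% and 73.5% of small-cluster bins and in 47.1% and 38.4% of the bins around them. A loss of at least 2-fold was seen in 426 bins of the big cluster in replicate 1 (29.6%, exact Clopper-Pearson 95% interval 27.3 to 32.0%) and 258 in replicate 2 (31.4%, 28.3 to 34.7%). In the small cluster 8 bins (0.752%, 0.325 to 1.48%) and 10 bins (1.21%, 0.583 to 2.22%) lost as much. Over all bins listed for both strains the shares were 1.69% in replicate 1 and 1.07% in replicate 2, and 0 of 19829 and 0 of 20368 bins of the other nuclear chromosomes reached a 2-fold loss (upper limits 0.0186% and 0.0181%). The intervals cover counting of bins only, and neighbouring bins are not independent. Intact medians were 0.34 and 0.31 in the small cluster and 0.08 and 0.11 on the other nuclear chromosomes. A 2-fold loss from such a median would end below input, so that these low shares cannot tell a weaker loss from a lower starting level.

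**Figure D1:**
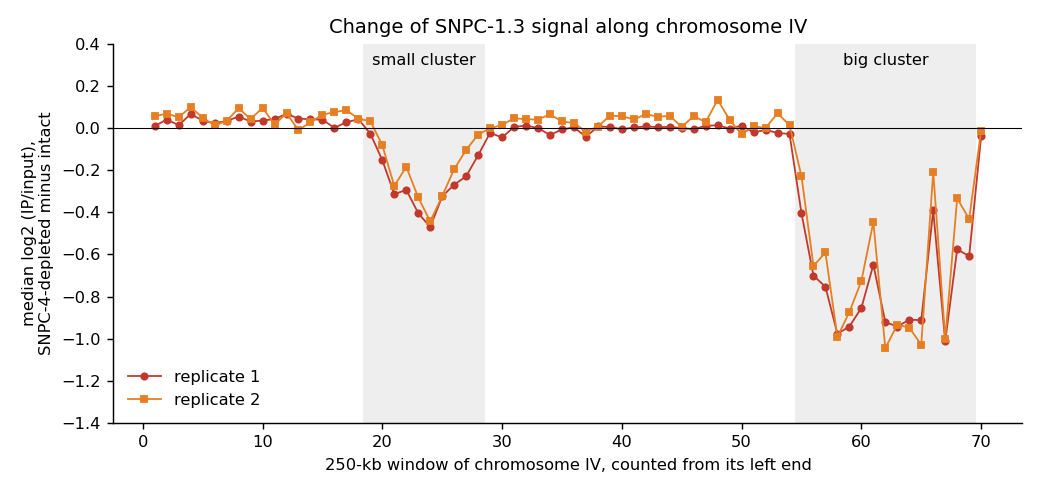
Median change in log2 (IP CPM / input CPM), SNPC-4-depleted minus intact, for each 250-kb window of chromosome IV in order from its left end, with 1 line per replicate. Grey marks the windows of the clusters. Over all bins of a cluster the median lies below 0 in both replicates, further in the big cluster (-0.80 and -0.68) than in the small one (-0.26 and -0.17). The leftmost window of the small cluster stays near 0 (-0.03 and 0.03).

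The loss was uneven within each cluster, as the plot of 250-kb windows shows. Next to each other in the right part of the big cluster, a window with medians of -0.39 and -0.21 in replicates 1 and 2 (85 and 70 bins) followed one with -0.91 and -1.03 (94 and 36 bins). The window of smaller loss also held fewer overlaps of a piRNA with a bin, 496 against 1064. The change of single bins correlated between replicates in the big cluster (Pearson r = 0.89 across 667 bins) and the small cluster (0.73, 605 bins), less on the rest of chromosome IV (0.28, 2259 bins) and little on the other nuclear chromosomes (0.10, 13084 bins). The replicates are separate libraries, but bins share piRNA number, base composition and neighbours.

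Each of the 16629 bins listed in all 4 lists was then tested with edgeR's quasi-likelihood test on the IP and input counts, which asks whether IP relative to input differs between strains. At a Benjamini-Hochberg adjusted p of at most 0.05, 657 bins were lower in depleted worms (3.95%) and 16 were higher (0.0962%). The big cluster held 444 of the lower bins, among 667 tested (66.6%), and the small cluster 169 among 605 (27.9%). A further 25 of 2259 tested bins called lower lay on the rest of chromosome IV (1.11%) and 19 of 13084 on the other nuclear chromosomes (0.145%). All 16 higher bins lay on the other nuclear chromosomes. The called losses ranged between -0.36 and -1.68 on the log2 scale, with a median of -0.90 in the big and -0.53 in the small cluster. Both depleted samples lay below both intact samples in 594 of the 667 big-cluster bins (89.1%) and 367 of the 605 small-cluster bins (60.7%), against 15.6% of all tested bins. No bin of either cluster was called higher by edgeR, DESeq2 or limma, and 2 cluster bins, both in the small one, were higher at an unadjusted p under 0.05. The counts of the small cluster and of higher bins depended on the samples or the tool. DESeq2 called 51 bins lower in the small cluster, and without depleted replicate 1 or without intact replicate 2 edgeR called 110. The 16 higher bins numbered 0 with DESeq2, 89 without depleted replicate 1, and 2, 2 and 3 without depleted replicate 2, intact replicate 1 and intact replicate 2. At an unadjusted p under 0.05 edgeR put 1058 bins lower and 521 higher.

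Among the bins with the smallest p-values in the big cluster, the bin of 21ur-9846, 21ur-5856 and 21ur-5809, which also overlaps eps-8, had log2 IP over input of 0.10 and 0.17 in depleted worms and 1.55 and 1.80 in intact worms (change -1.55, SE 0.14, adjusted p = 6.13e-07, edgeR). Only the intact samples stood above 1. A bin of 8 piRNAs led by 21ur-2727 had -0.10 and -0.15 in depleted worms and 1.43 and 1.62 in intact worms (change -1.65, SE 0.15, adjusted p = 6.13e-07, edgeR). Depleted IP coverage there lay below the input. The leading bin of the small cluster overlapped M03D4.78 and no piRNA, with 0.15 and 0.32 in depleted worms against 1.39 and 1.36 in intact worms (change -1.14, SE 0.13, adjusted p = 2.01e-06, edgeR).

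The study displayed some loci singly from these same libraries, so that their values are a description, with no test. The bin of 21ur-10837 and 21ur-1380, whose starts are 3 bases apart, had 0.12 and 0.30 in depleted worms against 1.06 and 1.44 in intact worms, and 0.04 and 0.10 in N2. The fitted change was -1.06. The bin of 21ur-1763 and 21ur-7637, which have no GTTTCA in the window, had 0.51 and 0.51 in depleted worms against 1.21 and 1.43 in intact worms, and 0.43 and 0.41 in N2 (fitted change -0.82). Depleted and intact samples did not overlap in either bin. Of other piRNAs that the study named, the bins of 21ur-1258, 21ur-3142, 21ur-3766, 21ur-2502 and 21ur-4817 were listed in both intact lists but in 1 or neither of the depleted ones. For 21ur-1258 the values were 0.01 in the listed depleted sample and 1.38 and 1.38 in the intact samples. The bin of 21ur-1848 was in none of the lists.

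The number of piRNAs in a bin ordered both the intact level and the loss. In the big cluster the median change in replicates 1 and 2 was -0.28 and -0.25 in bins without a piRNA, -0.62 and -0.70 with 1, -0.87 and -1.05 with 2 to 4, and -1.02 and -1.15 with 5 or more. The same classes of the small cluster changed by -0.15 and -0.07, -0.31 and -0.30, -0.42 and -0.52, and -0.57 and -0.74. The small cluster changed less than the big one in every class and both replicates, though 2 to 4 and 5 or more are ranges, within which the number of piRNAs was not matched. Its intact level was also lower, with 0.56 and 0.66 at 5 or more piRNAs, against 1.01 and 1.24 in the big cluster. Depleted levels of that class were 0.00 and 0.02 in the small and -0.01 and 0.02 in the big cluster. The part of the intact level in the smaller change was not tested. The test called lower 106 of 309, 50 of 66, 195 of 199 and 93 of 93 bins of these classes in the big cluster. For the small cluster it called 55 of 416, 28 of 71, 75 of 104 and 11 of 14.

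**Figure D2:**
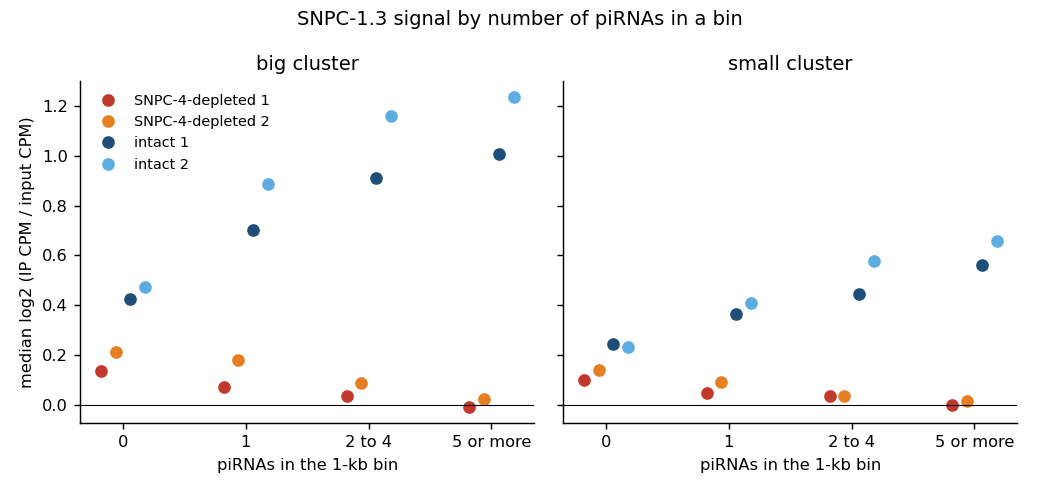
Median log2 (IP CPM / input CPM) of bins listed for both strains, by number of piRNAs in the bin, for the big and small clusters; each point is 1 sample. Intact medians climb with piRNA number, whereas depleted medians decline toward 0, and the difference between bins of 5 or more and of 0 piRNAs is negative in both depleted samples in each cluster.

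The gradient across piRNA number differed in direction between strains. Over both clusters, the median of bins with 5 or more piRNAs minus that of bins without any was -0.12 and -0.14 in depleted worms, against 0.68 and 0.83 in intact worms (exact permutation p = 0.333, two-sided, the smallest possible). Across tested bins the change correlated with piRNA number at r = -0.70 in the big and -0.56 in the small cluster. With the intact level, which is part of the change, it correlated at -0.935 and -0.87. Both are descriptions over bins that share libraries, base composition and neighbours. Listing limits these values: bins dense in piRNAs entered the comparison only where enough coverage remained after depletion.

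The listing of a bin is also a description of its IP coverage, background included. Of the 3700 bins of the big cluster, 1450 and 827 were listed for depleted worms, against 3216 and 3198 for intact worms, with 993 and 770 for N2. Among bins with 5 or more piRNAs, 38.5% and 11.0% were listed for depleted worms, against 99.9% and 99.8% for intact worms, with 16.8% and 8.16% for N2. The second depleted sample had the smallest IP total of the 4 IP libraries, and the part of depth in its fewer listed bins was not tested. Of the 2500 bins of the small cluster 1168 and 912 were listed for depleted worms, 1929 and 1903 for intact worms, and 1032 and 925 for N2. On chromosome IV outside the clusters the order was the other way, with 48.0% and 44.3% of bins listed for depleted and 39.6% and 37.5% for intact worms. Untagged N2 had 47.2% and 46.1% listed there, near the depleted worms and above the intact ones.

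**Figure D3:**
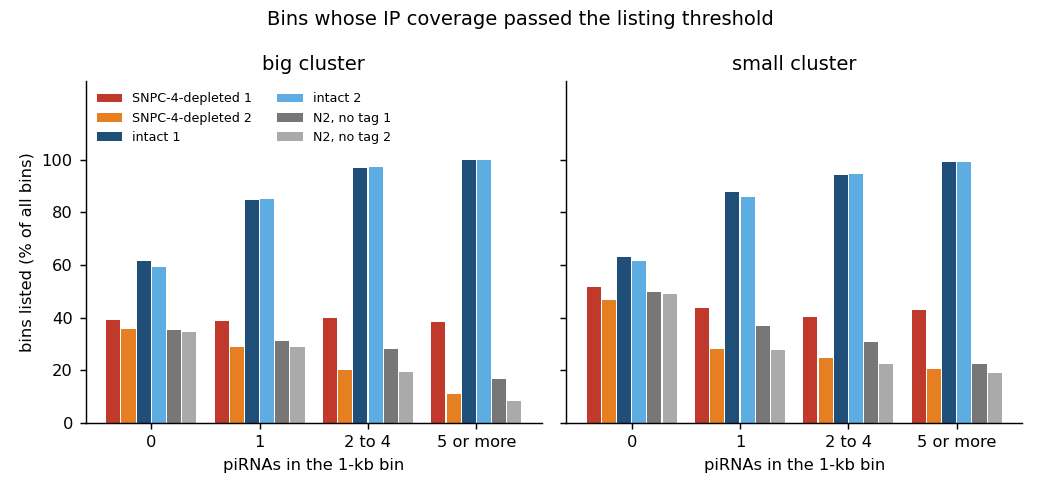
Share of all 1-kb bins of each cluster whose IP coverage passed the listing threshold, by number of piRNAs in the bin, with 1 bar per sample (2 depleted, 2 intact, 2 N2). Intact samples list nearly every bin with 5 or more piRNAs (99.9% and 99.8% in the big cluster), while depleted samples list 38.5% and 11.0% and N2 16.8% and 8.16%.

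Of 3155 big-cluster bins listed in both intact samples, 667 were in both depleted lists, 910 in 1 and 1578 in neither (50.0%). The share in neither was 25.3% of bins without a piRNA, 46.7% with 1, 54.8% with 2 to 4 and 58.5% with 5 or more. In the small cluster 611 of 1800 (33.9%) were in neither, and on the rest of chromosome IV 191 of 3178 (6.01%). If these bins were unlisted because their IP coverage was under the threshold, their median IP change in the big cluster would be at most -0.87 in replicate 1 and -0.98 in replicate 2 on the log2 scale. The bound is on IP alone, and the unlisted bins held more piRNAs. By piRNA class the bounds in the big cluster were, in replicate 1, -0.27, -0.52, -0.82 and -1.02 for 0, 1, 2 to 4 and 5 or more piRNAs, beside IP over input medians of -0.28, -0.62, -0.87 and -1.02 in the bins listed for both strains in that replicate.

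Cluster bins without a piRNA of their own lost less. In both clusters the loss was smaller beyond 10 kb from the nearest piRNA than within 1 kb of it. In the big cluster, the median fitted change was -0.39 within 1 kb, -0.29 at 1 to 5 kb, -0.23 at 5 to 10 kb and -0.15 beyond 10 kb, with 50 of 105, 38 of 95, 10 of 49 and 8 of 60 bins called lower. Small-cluster bins changed by -0.21, -0.13, -0.13 and -0.02, with 24 of 91, 19 of 143, 8 of 75 and 4 of 107 called. The loss of this cluster did not decline between the middle distances. Its leftmost 250-kb window held 72 tested bins, 0 of them called, and 2 overlaps of a piRNA with a bin. The part of that window in the farthest class was not tested. In the big cluster, intact medians declined across these distances, at 0.56 and 0.66 in the nearest and 0.30 and 0.27 in the farthest bins. Depleted medians stood at 0.16 and 0.27 in the nearest and 0.14 and 0.19 in the farthest. Reads were extended to 200 bases, so that coverage can cross a bin edge, and its part in the nearest class was not tested.

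**Figure D4:**
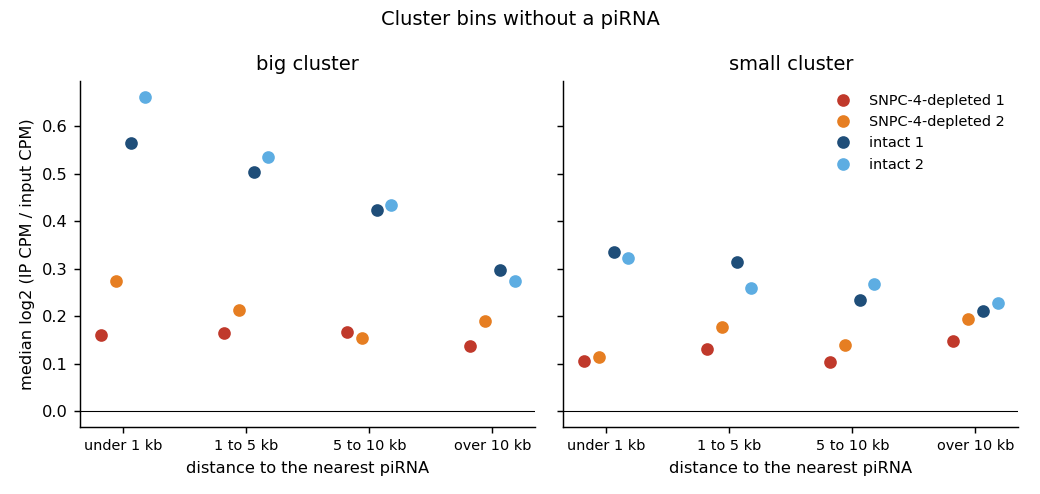
Median log2 (IP CPM / input CPM) of tested cluster bins without a piRNA, by distance to the nearest piRNA, with 1 point per sample. Intact samples lie highest within 1 kb of a piRNA in the big cluster (0.56 and 0.66) and come down toward the depleted samples beyond 10 kb (0.30 and 0.27).

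Bins were also sorted by the class that the study gave to their piRNAs from small RNA sequencing. Of cluster bins holding only male-enriched piRNAs 56 of 77 were called lower (72.7%), of those with only female-enriched piRNAs 11 of 15 (73.3%) and of those with only piRNAs enriched in neither 146 of 200 (73.0%), against 452 of 547 cluster bins with any piRNA (82.6%) and 613 of all 1272 tested cluster bins (48.2%). The median fitted changes were -0.63, -0.49 and -0.63. Female-only bins were few, and 14 of the 15 lay in the big cluster. In that cluster alone the medians were -0.86 for male, -0.50 for female and -0.84 for not enriched bins, and 39 of 41, 11 of 14 and 97 of 110 were called. With 2 to 4 piRNAs in the bin, they were -0.97 for male (25 bins), -0.51 for female (9 bins) and -0.88 for not enriched (59 bins). Over all bins with 2 to 4 piRNAs listed for both strains in that cluster, depleted levels in replicates 1 and 2 were 0.04 and 0.12 for male (44 and 30 bins) and 0.09 and 0.10 for female bins (16 and 9 bins), against intact levels of 0.97 and 1.24 for male and 0.74 and 0.70 for female bins. The difference between classes was not tested. DESeq2 called 33 male, 6 female and 96 not enriched bins, and without intact replicate 2 edgeR called 7 female bins.

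Bins in which at least 1 piRNA start had GTTTCA upstream were compared with bins with none in the same class of starts. Only the exact string was counted, so that a variant such as gtttcc before 21ur-1763 stood as absent. With 2 to 4 starts in the small cluster, the median change in replicates 1 and 2 was -0.44 and -0.54 with the motif and -0.21 and -0.25 without it, and 69 of 90 and 4 of 12 tested bins were called lower. In these tested bins depleted levels were 0.07 and 0.05 with the motif and 0.07 and 0.06 without it. Intact levels were 0.53 and 0.65 with it and 0.23 and 0.38 without it. In the big cluster it was -0.89 and -1.08 with the motif and -0.73 and -0.62 without it, with 184 of 186 and 14 of 16 called. At 1 start the medians of the big cluster lay closer, at -0.64 and -0.71 with the motif and -0.58 and -0.61 without it. A class of 2 to 4 starts can hold different numbers of starts in the bins compared. Called bins of the big cluster also had a lower GC content, a median of 36.2% against 40.2% in bins that were not called. Within bins of 0 piRNAs it was 39.8% against 40.4%, within bins of 1 piRNA 39.1% against 37.5%, and within bins of 2 to 4 piRNAs 35.4% against 42.0%, the last in 4 bins. The part of base composition in these differences was not tested.

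Among other small noncoding genes, the tRNA genes that lie inside the clusters stood out by count. All 23 tested cluster bins that hold a tRNA start were lower in depleted worms, with edgeR, DESeq2 and limma and with each replicate left out, 18 in the big and 5 in the small cluster, with changes between -0.65 and -1.63. Of all tested cluster bins 613 of 1272 were lower (48.2%), and 66.6% in the big cluster. On chromosome IV outside the clusters, edgeR called 0 of 21 tested tRNA start bins at an adjusted p of at most 0.05, as did DESeq2 and limma. Of the 21, 3 were lower at an unadjusted p under 0.05, and their median change was -0.01 with a range of -0.27 to 0.12. Over all tested bins of that region 25 of 2259 were called lower (1.11%), so that 0 of 21 is near that share. The medians of the 18 big-cluster bins were 0.21 and 0.41 in depleted worms, against 1.55 and 1.58 in intact worms. That intact level was above the 1.01 and 1.24 of big-cluster bins with 5 or more piRNAs. Of the 23 tRNA bins 9 overlapped no piRNA, and all 9 were called lower, against 161 of 725 tested cluster bins without a piRNA (22.2%). Several of these tRNA bins adjoin each other, such as those of Y65A5A.t1 and Y65A5A.t2 or of Y43D4A.t1 and Y43D4A.t2, and are not independent. Of tested cluster bins with any piRNA 452 of 547 were called lower (82.6%).

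At Y43D4A.t1, in a bin without a piRNA, log2 IP over input was 0.12 and 0.21 in depleted worms, against 1.56 and 1.56 in intact worms and 0.12 and 0.18 in N2. The change was -1.41 (SE 0.13, adjusted p = 6.13e-07, edgeR). The depleted values lay close to those of the untagged strain. At Y7A9D.t3, with 4 piRNAs in the bin, the values were -0.08 and 0.05 in depleted worms, against 1.55 and 1.66 in intact worms (change -1.63, SE 0.15, adjusted p = 6.13e-07, edgeR). The highest intact level of the set was at Y105C5B.t4, again without a piRNA, with 0.67 and 0.79 in depleted worms and 2.03 and 2.06 in intact worms. Its depleted values did not come down to 0, and N2 read 0.37 and 0.68 there. In none of the 23 bins did a depleted sample reach an intact one. tRNA genes occur in near-identical copies, and how reads were shared between copies was set by the mapping quality filter.

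**Figure D5:**
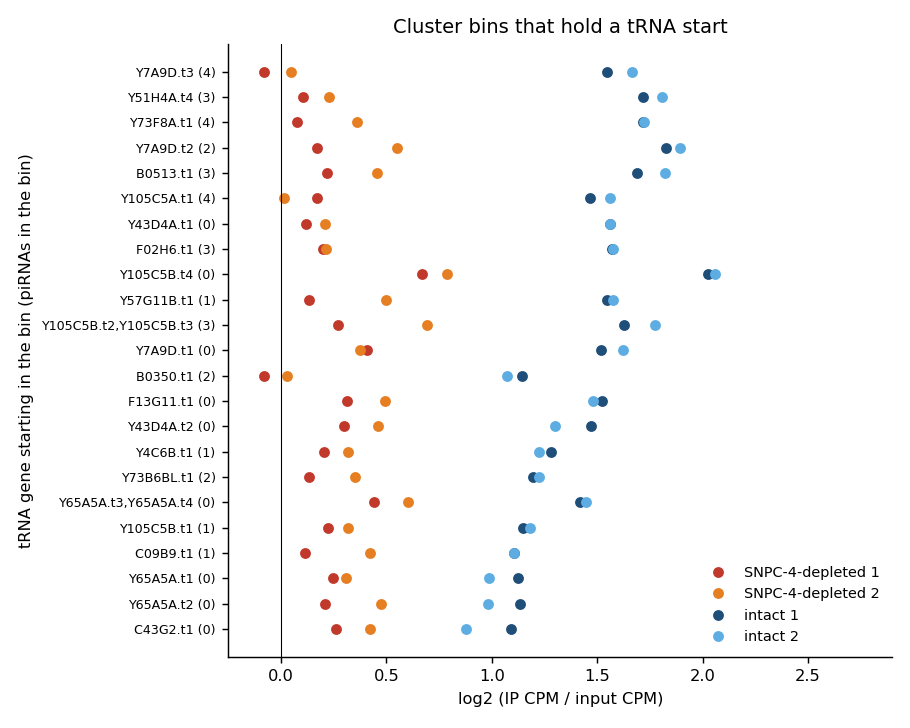
log2 (IP CPM / input CPM) in each of the 23 tested cluster bins that hold a tRNA start, 1 point per sample, with the number of piRNAs in the bin in brackets and the largest loss at the top. The depleted points (red, orange) lie left of the intact points (blues) in every bin, also where the bin holds 0 piRNAs.

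SL RNA genes with sls-2 names fell with the piRNA clusters at some loci and not at others. Of 31 SL RNA start bins 11 could be tested, all of genes with sls-2 names, and 5 were called lower (45.5%, against 3.95% of all tested bins). SL RNA genes with other names were not covered. At sls-2.19, in a small-cluster bin without a piRNA, log2 IP over input was 0.26 and 0.13 in depleted worms, against 1.04 and 1.17 in intact worms (change -0.92, SE 0.11, adjusted p = 2.93e-06, edgeR). At sls-2.11, on chromosome IV outside the clusters in a bin that also overlaps a piRNA, it was 0.05 and 0.25 in depleted worms, against 0.74 and 0.87 in intact worms (change -0.67, SE 0.10, adjusted p = 7.45e-05, edgeR). The other 3 lay on chromosome III. sls-2.14 changed by -0.62, sls-2.15 by -0.55 and sls-2.8 by -0.45. None of these 3 was called without intact replicate 2. sls-2.14 and sls-2.15 start in neighbouring bins and are not independent. The 6 that were not called ranged between -0.39 and 0.09, and the tested gene with the highest depleted values, sls-2.1, had 0.60 and 0.59 in depleted worms and 0.44 and 0.55 in intact worms. Outside the clusters 4 SL RNA start bins were called by edgeR, 1 with DESeq2 (sls-2.14), 2 without depleted replicate 1 and 1 without intact replicate 2 (sls-2.11). sls-2.11 thus lost its call with DESeq2. SL RNA genes are near-identical copies, so that their own reads may be split or lost in mapping.

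Outside the clusters 44 bins were lower, and 29 of them (65.9%) overlapped a piRNA, snRNA, snoRNA or tRNA gene, as did 3.95% of the 15357 tested bins there. A piRNA lay in 11 of the 44 (and in 0.873% of tested bins), an snRNA, SL RNAs included, in 9 (20.5%, against 0.182%) and an snoRNA in 10 (22.7%, against 1.26%). None of the 16 higher bins overlapped any of these classes, which is near the 3.95% of all tested bins there. By start bin, 9 of 26 snRNA, 10 of 174 snoRNA, 3 of 250 tRNA and 16 of 3384 protein-coding bins outside the clusters were called lower, against 44 of all 15357 tested bins there. Of miRNA start bins 0 of 66 and of rRNA start bins 0 of 3 were called, also by DESeq2 and limma (1 miRNA bin was lower at an unadjusted p under 0.05). At the share over all bins, these counts of 0 are no result about miRNA or rRNA genes. The snRNA genes sup-6, with a change of -0.55, and F38E11.10, with -0.51, were among those called. Both lost the call with DESeq2, with limma, without depleted replicate 1 and without intact replicate 2. The 9 snRNA calls, 4 of them SL RNAs, numbered 3 with limma, 1 with DESeq2, 2 without depleted replicate 1 and 1 without intact replicate 2, all of them SL RNAs, and the 3 tRNA calls 0 with DESeq2, 1 without depleted replicate 1 and 0 without intact replicate 2. The 44 bins as a whole numbered 10 with DESeq2, 21 without depleted replicate 1 and 13 without intact replicate 2. In sup-6 the depleted samples had 0.32 and 0.53, against 0.88 and 1.06 in intact worms.

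Of the 25 lower bins of chromosome IV outside the clusters, 13 lay within 200 kb right of the upper bound used for the big cluster, where 83 bins were tested. The 4 with the smallest p-values were all there. The first, with 21ur-8563, 21ur-14311, 21ur-6472 and 21ur-10444, had 0.08 and 0.19 in depleted worms and 1.03 and 1.19 in intact worms (change -0.99, SE 0.14, adjusted p = 2.81e-05, edgeR). The median fitted change of big-cluster bins with 2 to 4 piRNAs was -0.96. Outside both clusters on chromosome IV, 6 of 8 tested bins with 2 to 4 piRNAs were lower, against 3 of 54 with 1 and 16 of 2197 with none.

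The higher bins changed by less, and none of the 4 described next kept its call under DESeq2 or under all 4 omissions of a replicate. The 4 with the smallest p-values had changes between 0.39 and 0.47. At emb-9, which encodes a type IV collagen chain, log2 IP over input was 0.88 and 1.02 in depleted worms, against 0.36 and 0.57 in intact worms and 0.68 and 0.82 in N2 (change 0.47, SE 0.12, adjusted p = 0.0179, edgeR). N2, which has no tag, lay between the strains at this bin. At rhy-1 it was 0.49 and 0.53 in depleted worms, 0.21 and 0.01 in intact worms, and 0.40 and 0.23 in N2. The start bins of snpc-4, snpc-3.4, which encodes another SNAPc subunit homolog, and tofu-4, a piRNA biogenesis factor, were tested and were not called. The 14 tested mitochondrial bins changed in opposite directions in the replicates, with medians of -0.26 and 0.71, and most of them stood at the ceiling that duplicate removal sets on coverage.

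The loss of occupancy was set beside small RNA counts of other worms of the series, snpc-1.3(-) mutants and N2, both at 48 hr. piRNAs in big-cluster bins that were called lower summed to 5663 and 6978 CPM in snpc-1.3(-), against 8680, 8915 and 10730 CPM in N2, with log2 of the ratio of means at -0.58. piRNAs in small-cluster bins that were called lower summed to 413 and 457 CPM in snpc-1.3(-), against 795, 844 and 1006 CPM in N2, with a log2 ratio of -1.02. The strains did not overlap in either set, nor did they in small-cluster bins that were tested and not called, with 181 and 177 CPM in snpc-1.3(-), against 324, 346 and 369 CPM in N2 (log2 ratio -0.96). In small-cluster bins that no depleted list held the log2 ratio was -0.54, again without overlap, so that the drop in this cluster was not limited to bins called lower. In big-cluster bins that no depleted list held, the sums were 38110 and 47320 CPM in snpc-1.3(-), against 41350, 45070 and 53330 CPM in N2, and overlapped. Big-cluster bins that were tested and not called held 24 piRNAs. Their sums were 190.7 and 347.6 CPM in snpc-1.3(-), against 195.2, 199.4 and 199.5 CPM in N2, and overlapped (log2 ratio 0.44). These sums are given as a description, because a few abundant piRNAs can carry them. Across bins with piRNAs, Spearman's rho between the change in occupancy and the N2 small RNA sum was -0.37 in the big (356 bins) and -0.31 in the small cluster (188 bins), and both measures moved with the number of piRNA starts (rho 0.60 and 0.48 for the small RNA sum).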

How the data were processed

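SNPC-1.3 ChIP was analysed in 2 replicates per strain, each with IP and input. The authors trimmed reads of 50 bases (Trim Galore 0.5.0), aligned them to WBcel235 (Bowtie2 2.3.4.2), removed duplicates (Picard 2.22.1), kept a mapping quality of 30 (SAMtools 1.9), extended reads to 200 bases and counted 1-kb bins. The authors deposited, per bin, the raw count, CPM of the count plus 1 and a background-subtracted signal, and listed only bins whose IP passed an input threshold, so that values under it are missing. The authors also deposited raw counts of small RNAs per gene, of which 6 further columns were not used. Whole-series tables of the other ChIP target were not used.

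Here log2 of IP over input CPM was compared per replicate, and edgeR 4.0.16 (R 4.3.3) tested the interaction of library kind and strain with 1 term per worm sample and the deposited totals as library sizes. Benjamini-Hochberg adjustment ran over all 16629 bins. In simulated data for this comparison with 16629 bins, 84 of 100 bins changed 1.5-fold and 20 of 100 changed 1.25-fold were recovered, with 5 false calls. The simulation gave every bin the same dispersion and the samples no other differences, so that it is simpler than the data. Alternatives used TMM, DESeq2 1.42.0, limma 3.58.1, other bin sets, unmatched inputs, a replicate block and omission of each replicate. Bins were named if they held the start of a piRNA or factor that the study followed or displayed, or had one of the 4 smallest p-values of a cluster, of lower bins outside and of higher bins, without overlap between strains. SL RNA, snRNA and tRNA bins were named after their values were seen. Members, cluster bounds and gene lists were chosen with earlier results of these data known, and TGTCNG after the sequences had been seen. piRNA classes and numbers are those of the deposited lists. Python 3 served for the rest.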

Additional observations from a re-analysis of the deposited data

Results flagged for a closer look

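Input libraries, which the comparison uses only as a denominator, differed between strains in places. The largest such difference among the tested bins was at 2390001 to 2391000 on chromosome IV, where input CPM was 20.0 and 20.1 in depleted worms, against 11.5 and 10.7 in intact worms and 11.3 and 10.3 in N2, a log2 ratio of depleted over intact of 0.85. IP over input changed by -0.05 there and was not called. In the start bin of sun-1, whose promoter drives the TIR1 transgene, input CPM was 12.8 and 13.1 in depleted worms, against 10.4 and 10.4 in intact worms and 10.2 and 10.5 in N2, a log2 ratio of 0.31. Of the tested bins, 13 had input at least 0.4 higher on the log2 scale in depleted worms with no overlap between samples, 7 on chromosome IV and 6 on chromosome II, and 0 of them were called by edgeR, DESeq2 or limma or reached an unadjusted p under 0.05.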

How the results depend on the processing

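Of 657 bins called lower and 16 called higher, DESeq2 called 399 and 0, and the set also listed in N2, which holds fewer bins (14223), gave 368 and 8. All 399 bins of DESeq2 were among the 657. In the big cluster that smaller set gave 259 of the 444 bins, and in the small cluster DESeq2 gave 51 and the smaller set 79 of the 169. The 44 bins outside the clusters became 84 with TMM over the tested bins, 102 with TMM over bins outside chromosome IV and 10 with DESeq2. Leaving out 1 replicate gave 513 to 629 lower and 2 to 89 higher bins, 110 to 140 lower bins in the small cluster and 13 to 51 outside the clusters. Male, female and not enriched bins called were 33, 6 and 96 with DESeq2 and 29, 6 and 82 in the set also listed in N2, and female bins 7 to 10 with a replicate left out. Start bins outside the clusters numbered 1 for SL RNA with DESeq2 (1 to 5 with a replicate left out), 14 for snRNA with TMM over bins outside chromosome IV, 3 with limma and 1 with DESeq2 (1 to 9), and 5 for tRNA with TMM over bins outside chromosome IV and 0 with DESeq2 (0 to 4). The cause of these changes was not tested. Same-numbered samples deviated together with r = 0.08 over 16629 bins, so that the replicate numbers were not taken as pairs; a replicate block gave 731 lower and 30 higher bins, all 657 among the lower ones.

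The median of replicate medians, -0.74 in the big and -0.22 in the small cluster, was -3.24 and -1.62 on the authors' background-subtracted signal. That signal is IP CPM minus a constant of 10.45 to 10.54 CPM per library, so that its log2 ratios grow large where IP lies near the constant. The rest of chromosome IV was at 0.24 and the other chromosomes at 0.41 on that scale. Centred on bins outside chromosome IV, the medians of the rest of chromosome IV and of the other chromosomes were -0.015 and 0.00. Leaving out 1 replicate gave -0.88 to -0.61 in the big cluster, -0.0037 to 0.05 on the rest of chromosome IV and 0.0081 to 0.0689 on the other chromosomes. By piRNA number, bins without a piRNA had -0.27 in the big cluster alone and -0.11 in the small cluster alone, bins with 1 had -0.66 and -0.30 and, in bins listed in all 4 lists, -0.43, bins with 2 to 4 had -0.96 and -0.47, and bins with 5 or more had -0.65 in the small cluster alone. A limit of -0.58 in place of -1 raised the share of bins past it to 69.5% and 54.3% in the big and 13.2% and 13.5% in the small cluster. Leaving out the 14 bins at the count ceiling, chosen after seeing the data, gave 655 lower and 16 higher bins. For 55 named bins (46 in the set also listed in N2), 37 comparisons with the other tools, scalings, bin sets, the block and the omissions lost a call, 7 gained one and 0 reversed.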
